A study of Rattus norvegicus with 12 samples.

Results

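The comparison described here sets the control lungs of a pair of inbred rat strains against each other, to show how the strains differed at baseline. It sets side by side 6 of the 12 arrays of the study, chosen by their titles. These are 3 arrays of Dahl salt-sensitive rats (SS control 1, 2 and 3) and 3 of Brown Norway rats (BN control 1, 2 and 3). The other 6 arrays came from rats of the same strains after a form of ventilation given in the labels only as HTV (SS HTV and BN HTV, 3 arrays each). They are used here as a repeat of the strain comparison in other animals. The same arrays also entered the choice of probe sets to test and the estimate of spread behind the control calls. All rats weighed 250 to 350 g, and neither sex nor age is given in the labels. The control animals are described as exposed to room air, with no further account of how they were handled. Their lung vessels were flushed with saline and the right lung was frozen whole, so each array measured a mixture of airway, alveolar, vascular and blood cells. In such tissue, fewer cells of a type and less RNA per cell cannot be told apart.

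The Dahl salt-sensitive rat was bred for a rise in blood pressure on a salty diet. The Brown Norway rat is known for its allergic and antibody-biased immune responses, and an animal of this strain gave the rat reference genome. Inbred strains carry fixed alleles, and those of the rat major histocompatibility complex, RT1, are among the most variable, because its class I and class II proteins present peptides to T cells. The arrays read each transcript through sets of short oligonucleotide probes, called probe sets. A base that differs between strains under a probe can lower its signal with no difference in transcript level, and a splice form or an alternative transcript end can separate probe sets of 1 gene. The probes' letters were not used here, so whether a probe covers such a base was not tested, and the strain difference was set side by side for probe sets of the same gene instead.

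Intensities were transformed as log2(intensity + 16), and 18625 of 31099 probe sets, standing for 10554 genes, were bright enough to be tested. A difference is SS minus BN on this scale, given with its standard error (limma, n = 3 arrays per strain), and it understates the change of dim probe sets. A probe set was called when its limma p-value, adjusted by Benjamini-Hochberg over all tested probe sets, was below 0.05. With that p-value unadjusted, 5390 probe sets (28.9%) lay below 0.05. A call given without a remark was kept whichever of the 6 control arrays was left out.

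The markers of lung tissue were bright in all 6 control arrays. The surfactant gene Sftpc read 3012 to 4304, the club cell gene Scgb1a1 3071 to 4322 and the alveolar type 1 gene Ager 2211 to 2761. On the first principal component of the control arrays, with 52.3% of the variance, SS and BN arrays lay apart. SS control 3 stood apart on the second, with 23.6%, at -36.2 where the other arrays lay between -3.0 and 20.2. Its mean correlation with the arrays of its own group was 0.950, against 0.964 to 0.975 for the others. As a sign of RNA integrity, the beta-actin control probe sets gave 5-prime to 3-prime ratios of -0.51, -0.23 and -1.40 in log2 in SS control 1, 2 and 3 and of -0.88, -1.46 and -0.95 in BN control 1, 2 and 3. SS control 3 thus lay within the range of BN arrays in this ratio, while SS control 1 and 2 lay above every BN array. The GAPDH control probe sets gave -0.05, -0.15 and -0.65 in SS control 1, 2 and 3 and -0.48, -0.65 and -0.36 in BN controls. Differences of strain and of RNA integrity therefore cannot be fully told apart. With the beta-actin ratio as a covariate the test called 1894 probe sets, against 2281 without it. Results are given with SS control 3, and without it where that matters.

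SS control 3 also read at the level of BN arrays at some genes that separated the strains elsewhere. At 76 probe sets the other 5 SS arrays, ventilated ones included, were all more than 1 log2 unit from every BN array. On a line from the mean of those SS arrays to the BN mean, SS control 3 lay below 0.25 of the way at 36 of the 76 probe sets, above 0.75 at 16 and between them at 24. Counted likewise, the remaining control arrays each covered 43 to 45 probe sets, of which at most 1 lay past the midpoint, against 30 for SS control 3. Serpina1, the antiprotease alpha-1-antitrypsin, read 64.1 in SS control 3, against means of 265.8 in the remaining SS arrays and 56.9 in BN arrays. Sc5d, a sterol desaturase of cholesterol synthesis, read 249.5 and 215.4 on its probe sets, against averages of 64.1 and 65.1 in the other SS arrays and 265.2 and 188.8 in BN arrays. Cnn2, a calponin of the actin cytoskeleton, read 1000.4 against 333.3 and 937.4. At Trio and Wtap, described below, the array read like the other SS arrays. On the brightest probe set of Jund it read 881.4, between the BN average of 1888 and the average of 402 over the remaining SS arrays, and on the second probe set it lay with its own strain. These probe sets and limits were chosen after their values were seen, and the array was kept as labelled.

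Baseline differences were many, mostly small, and balanced in direction, while the largest ones leaned towards BN. The test called 2281 of 18625 probe sets (12.2%), 1088 of them higher in SS (5.84%) and 1193 higher in BN (6.41%). The median size of a called difference was 0.64 log2 units. By at least 2-fold, 113 were higher in SS (0.607%) and 264 higher in BN (1.42%), so that 70.0% of these larger differences were higher in BN, and 62.4% to 72.4% with any 1 control array left out. Quantile normalization left this share at 65.1%. Taken by gene, through the brightest tested probe set of each, 1158 of 10554 genes were called (11%), 615 higher in SS (5.83%) and 543 higher in BN (5.14%), and the median difference over all genes was -0.01. The arrays of the strains did not overlap for 3445 genes (32.6%). The number of called probe sets fell to 744 without BN control 2, 1127 without SS control 2 and 1330 without BN control 3, and it was 2159 without SS control 3, of which 1596 were called with it too.

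Among the genes with the largest excess in SS were a mitochondrial enzyme, a leukocyte integrin, a xenobiotic enzyme and the proteoglycan osteoglycin. Echdc2, an enoyl-CoA hydratase domain protein of mitochondria, read 219.4, 276 and 372.2 in SS control 1, 2 and 3 and 19.1, 31.7 and 6.5 in the BN controls. The groups were far apart, by 3.16 ± 0.30 (adjusted p = 3.5e-05). Itgal, the alpha chain of the leukocyte integrin LFA-1, read 805.9, 724.7 and 462.4 against 59.8, 65.3 and 51.2, a difference of 3.15 ± 0.20 (adjusted p = 8.6e-07), with SS control 3 lowest of its group and still well above every BN array. Cyp1a1, the cytochrome P450 induced through the aryl hydrocarbon receptor, read 194, 175.1 and 89.3 in SS and 4.6, 7.3 and 6 in BN, close to the floor in every BN array (2.88 ± 0.34, adjusted p = 0.00023). Rnf6, a ubiquitin ligase, differed by 2.23 ± 0.19 and Ckmt1, a mitochondrial creatine kinase, by 1.71 ± 0.17. Slc3a1, the heavy subunit of a cystine and dibasic amino acid transporter, differed by 1.74 ± 0.24, the kinesin Kif13a by 1.65 ± 0.23 on its brightest probe set, and Stfa2l2, of the stefin family of cysteine protease inhibitors, by 2.33 ± 0.52. The other probe sets of Kif13a stood at 0.38 and 0.08 and did not pass (adjusted p = 0.18 and 0.72), and both gaps from the brightest, 1.28 ± 0.16 and 1.57 ± 0.26, passed the test between probe sets described below (adjusted p = 0.0002 and 0.0014). The call of Stfa2l2 was lost without BN control 2 (adjusted p = 0.0575).

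Ogn, PCOLCE2 and Sfrp2, which encode secreted proteins, were also higher in SS. Ogn, the small proteoglycan osteoglycin, read 1252, 1311 and 585.1 in SS controls and 272, 195.5 and 219.4 in BN controls, a difference of 2.05 ± 0.27. PCOLCE2, an enhancer of procollagen processing, read 359.1, 405.4 and 119.7 against 81.1, 60.6 and 52.4 (1.80 ± 0.31). In both genes SS control 3 was the lowest SS array, and without it the differences were 2.42 and 2.32. Of the other probe sets of Ogn, those at 1.65 and 0.81 were called and that at 0.68 was not. The call at 0.81 was lost without SS control 3, BN control 2 or BN control 3 (adjusted p up to 0.0906). Sfrp2, a secreted antagonist of Wnt signalling, differed by 1.56 ± 0.21 and had its highest value, 288, in SS control 3.

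Among the genes with the largest excess in BN were members of the RT1 complex and of the cardiac muscle list, described below, and the single genes given here. Clec3b, which encodes the plasminogen-binding protein tetranectin, read 4.6, 6.5 and 198.4 in SS control 1, 2 and 3 and 673.2, 390.5 and 337.6 in BN controls. SS control 3 lay between its group and the BN arrays, and the difference was -3.32 ± 0.64 (adjusted p = 0.0064) with it and -4.43 without it. Ccn1, a matricellular protein induced by growth factors and stretch, read 10.4, 28.2 and 8.4 against 169.1, 226.5 and 152.4 (-2.68 ± 0.22, adjusted p = 1.3e-05). Aurkb, a mitotic kinase, read 66.3, 34.6 and 99.8 against 414, 506.2 and 475.3 (-2.61 ± 0.24). Of 18 tested genes of the cell cycle list, Aurkb and Ccnd1 were called higher in BN and 0 higher in SS. Over all genes the shares were 5.14% and 5.83%. The list median was 0.16, with 13 members higher in SS and 5 higher in BN, called or not. Ccnd1 differed by -0.75 ± 0.20 (lost without BN control 1 or 2, adjusted p up to 0.111), with 0.05 and -0.30 on its other probe sets. The proliferation markers Mki67 and Top2a stood at 0.35 and 0.62 and did not pass. Cped1 differed by -2.84 ± 0.28, and Pik3r1, a regulatory subunit of PI3-kinase, by -2.20 ± 0.35. Cmahp, named for the enzyme that makes the sialic acid N-glycolylneuraminic acid, read 37.4, 39.3 and 34.2 against 211.5, 203.4 and 215.2, the tightest groups among these genes (-2.09 ± 0.15, adjusted p = 3.9e-06).

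**Figure D1:**
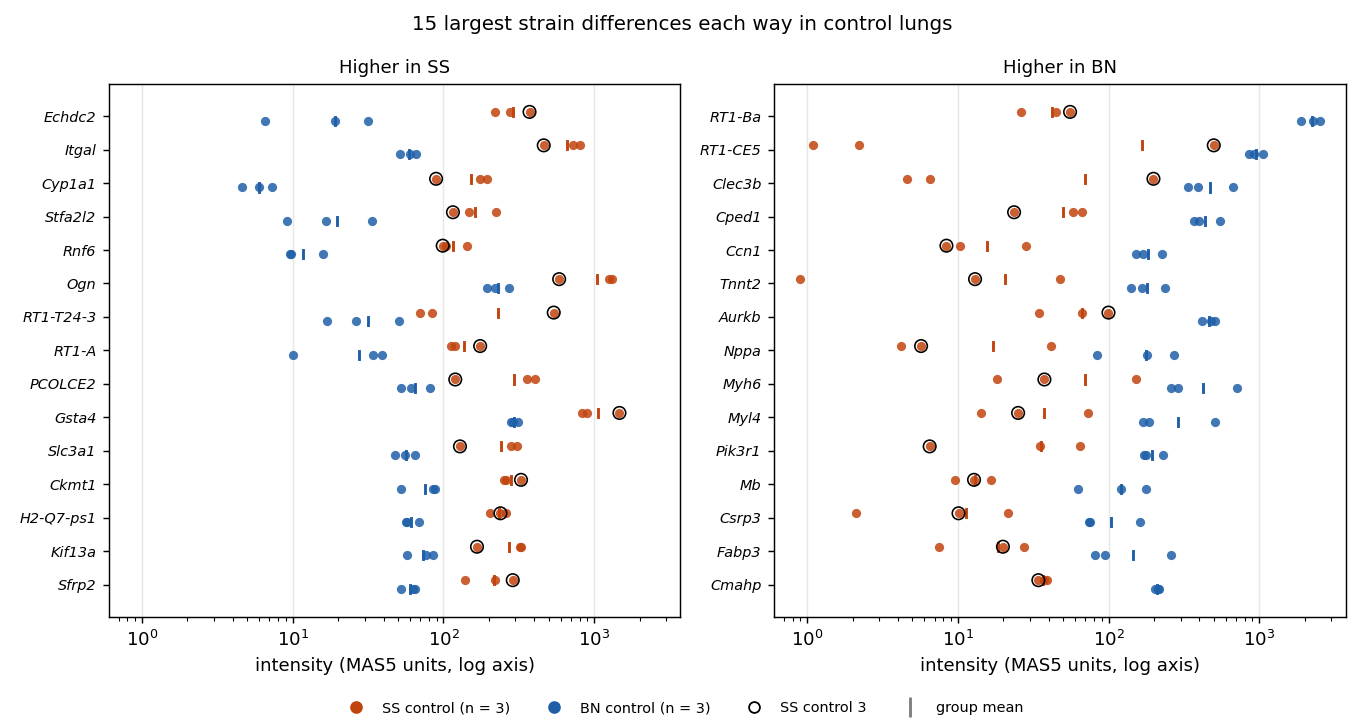
Intensity of each control array (log axis, MAS5 units) for the 15 genes with the largest strain difference in each direction, by the brightest probe set. Points are arrays, short bars are group means and the ringed point is SS control 3, which lies towards BN arrays at RT1-CE5 and Clec3b and with its own strain at Itgal and Ccn1.

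Itgal, Echdc2, Cyp1a1, Rnf6, Aurkb, Ccn1 and Cped1 were each read by a single tested probe set, so no second reading of these differences was available. Probe sets below the brightness limit or without a single gene name were not compared.

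In the RT1 complex the strains differed gene by gene and in both directions. Of 21 tested genes of class I and antigen processing 3 were called higher in SS and 3 higher in BN, against 5.83% and 5.14% of all genes. The list median was 0.16, against -0.01 over all genes. RT1-CE5, a class I gene, read 2.2, 1.1 and 498.4 in SS control 1, 2 and 3 and 1053, 858.6 and 923.1 in BN controls. The first SS arrays were at the floor and SS control 3 approached the BN level, which gave -4.14 ± 0.89 (adjusted p = 0.011) with that array and -5.76 without it, and the call was lost when the 6 control arrays were fitted alone (adjusted p = 0.0535). Its other 3 probe sets were all called in the same direction, at -1.76, -2.25 and -3.48. RT1-CE16 was lower in SS by 1.10 ± 0.16 on the log2 scale, and RT1-CE10 differed by -0.62 ± 0.18, a call lost without any 1 of 5 control arrays (all but SS control 1, adjusted p up to 0.101). In the other direction RT1-CE12 read 903.6 to 1430 in SS and 494.5 to 576.1 in BN (1.03 ± 0.15, adjusted p = 0.00095). Outside the list RT1-A, the classical class I gene, differed by 1.85 ± 0.27 and H2-Q7-ps1, a class I pseudogene by its name, by 1.71 ± 0.15. In RT1-T24-3 the size of the difference depended on SS control 3. The gene read 83.9, 69.4 and 538.6 against 50.9, 26.4 and 16.9, and its difference of 1.89 was 1.03 without that array. Its call was lost without BN control 2 or 3 (adjusted p up to 0.113). Nlrc5, the transactivator of class I genes, was higher in SS by 0.74 ± 0.17, a call lost without SS control 2 (adjusted p = 0.0638). Class I genes are near-identical copies, and a probe set can read more than 1 of them.

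Large class II differences were seen at RT1-Ba and RT1-Db1, and probe sets of each gene disagreed. RT1-Ba, the alpha chain of a class II molecule, read 45.1, 26.4 and 55.5 in SS and 2508, 1903 and 2263 in BN on its brightest probe set, far apart (-5.29 ± 0.19, adjusted p = 2.4e-09). Another probe set of the gene gave -4.68 ± 0.27. The remaining one went the other way, with 956.6, 1113 and 508.4 in SS and 295, 326.8 and 312.5 in BN (1.35 ± 0.22, adjusted p = 0.0024). The partner chain RT1-Bb read 1676, 1708 and 720.6 in SS and 902.4 to 1098 in BN, with SS control 3 below every BN array. It stood at 0.34 and did not pass (adjusted p = 0.37), while without SS control 3 it stood at 0.75 and passed (adjusted p = 0.0013). RT1-Db1, a beta chain of the other class II molecule, stood at 0.12 on its brightest probe set and did not pass (adjusted p = 0.53). Its dimmer probe set read 394.3, 332.1 and 126.1 in SS and 60.9, 46.2 and 60.2 in BN, with no overlap and SS control 3 lowest of its group (1.93 ± 0.30, adjusted p = 0.0015). RT1-Db1 was named after its values were seen. RT1-Da, the alpha chain of that molecule, was higher in SS by 0.39 ± 0.11, a call lost without any 1 of 5 control arrays (all but BN control 1, adjusted p up to 0.187). By the brightest probe set, RT1-Ba and RT1-Da were the 2 calls among 8 class II genes, 1 in each direction, with a list median of -0.04. Over all genes 11% were called.

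Genes of heart muscle had the highest share of calls among the lists examined. Rat pulmonary veins carry a sleeve of cardiac muscle inside the lung, so these transcripts are known in this tissue. Of 9 tested markers 8 were called higher in BN and 0 higher in SS, where 5.14% of all genes were called higher in BN, and the list median was -2.49. Tnnt2, cardiac troponin T, read 47.4, 0.9 and 13 in SS control 1, 2 and 3 and 235, 139.8 and 166.2 in BN controls (-2.61 ± 0.62, adjusted p = 0.017). Myl4, the atrial light chain of myosin, read 72.6, 14.2 and 25.1 against 507.6, 170 and 185.1 (-2.49 ± 0.56, adjusted p = 0.013). Nppa, the atrial natriuretic peptide, differed by -2.60 ± 0.71 and Myh6, the alpha myosin heavy chain, by -2.55 ± 0.72. In each of these the groups did not overlap, although SS control 1 was several times higher than SS control 2. Outside the list the muscle genes Mb, which encodes myoglobin, Fabp3 and Csrp3 differed by -2.14 ± 0.42, -2.11 ± 0.43 and -2.12 ± 0.54, the last call lost without SS control 2, BN control 1 or BN control 2 (adjusted p up to 0.0848).

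The sum of the 9 cardiac markers was 612.8, 122.4 and 244.8 in SS control 1, 2 and 3 and 3162, 1530 and 1406 in BN controls, so SS control 1 and BN control 1 were the highest of their strains and SS control 2 the lowest of all. Calls in this list depended on single arrays: 1 of the 8 was kept without SS control 2, 3 without BN control 2, 4 without BN control 1, 6 without SS control 3 and 7 without BN control 3. Without SS control 1 all 8 were kept and Myl7 was called as well. These fits gave list medians between -2.01 and -2.94. With the beta-actin ratio as a covariate 4 were called. Myl7, the remaining member, stood at -2.85 and did not pass (adjusted p = 0.063). How much vein the frozen lungs held was not measured.

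Some T and NK cell transcripts were higher in SS lungs, among them a pair of granzymes, and the CD3 chains of the T cell receptor complex were not called. Of 14 tested markers 5 were called higher in SS and 0 higher in BN, against 5.83% of all genes, and the list median was 0.45. Gzma, a granzyme of killer cells, read 303.5, 349.9 and 260.8 in SS and 102.6, 109.1 and 120.5 in BN, with no overlap (1.33 ± 0.14, adjusted p = 9.5e-05). Gzmb, another granzyme, differed by 1.10 ± 0.28, the chemokine Ccl5 by 0.98 ± 0.22, Cd8a, the coreceptor of cytotoxic T cells, by 0.88 ± 0.21 and the NK receptor Klrb1a by 0.68 ± 0.19. These 4 calls were each lost without SS control 2 and without BN control 2, and some without other arrays (adjusted p up to 0.123). A second probe set of Gzmb stood at 0.41 and did not pass. The CD3 chains Cd3e, Cd3d and Cd3g stood at 0.03, -0.05 and 0.08 and did not pass. The summed markers read 3979, 4253 and 2378 in SS control 1, 2 and 3 and 2153 to 2220 in BN controls, so SS control 3 lay near the BN arrays. Without it 8 members were called and the median was 0.77. Leaving out SS control 1, SS control 2, BN control 1 or BN control 2 left 2, 1, 3 and 1 calls.

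Interferon response genes showed the same dependence on SS control 3. Of 24 tested members 6 were called higher in SS and 1 higher in BN, where 5.83% and 5.14% of all genes were, with a median of 0.37. Irf7, the transcription factor that amplifies type I interferon, read 550.9, 701.9 and 295.1 in SS and 236.3, 188.8 and 184.8 in BN (1.20 ± 0.23, adjusted p = 0.0055). Mx1, an antiviral GTPase, read 231.4, 339 and 103.2 against 88.7, 66.4 and 61.1 (1.33 ± 0.31, adjusted p = 0.015). In both the groups did not overlap, and SS control 3 was the lowest of its group, near the highest BN array. Ifit3, Rsad2 and Ifi27 differed by 1.08 ± 0.26, 0.89 ± 0.23 and 0.53 ± 0.12. The calls of Mx1, Ifit3, Rsad2 and Ifi27 were lost without SS control 2 and without BN control 2 (adjusted p up to 0.111). Bst2, the virus-tethering protein tetherin, was lower in SS, at 985.8, 1134 and 784.5 against 1786, 1683 and 1895 (-0.89 ± 0.14, adjusted p = 0.0022). Without SS control 3 there were 14 calls higher in SS and 1 higher in BN, and with array weights 15 and 1. Without SS control 2, BN control 2 or BN control 3 the calls higher in SS numbered 1, 1 and 2.

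The complement component C1q was higher in SS through all of its chains. C1qc read 245.2, 201.7 and 169.4 in SS and 73.9, 85.8 and 109.4 in BN (1.07 ± 0.17, adjusted p = 0.0019), and C1qb and C1qa differed by 0.88 ± 0.18 and 0.53 ± 0.13. The calls of C1qb and C1qa were lost without BN control 2, and that of C1qa also without SS control 2 (adjusted p up to 0.0934). The protease C1s followed at 0.65 ± 0.17 (lost without SS control 3 or BN control 2, adjusted p up to 0.122). Cfi, the complement inhibitor factor I, went the other way, at -1.12 ± 0.33 (adjusted p = 0.045). That call was lost without any 1 of 5 control arrays and under median centring or quantile normalization (adjusted p up to 0.162). Altogether 5 of 15 complement genes were called higher in SS and 1 higher in BN, against 5.83% and 5.14% of all genes, with a median of 0.18. Without BN control 2 a single call remained higher in SS, and 3 remained without SS control 2 or SS control 3. C1q is made by macrophages, of whose 4 tested markers Adgre1 was called (0.68 ± 0.17, lost without SS control 2, BN control 2 or BN control 3, adjusted p up to 0.102), while Cd68 and Mrc1 stood at 0.47 and 0.14 and did not pass. The summed macrophage markers read 1805 to 1937 in SS and 1472 to 1826 in BN, and their part in the C1q difference was not tested.

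Other leukocyte lists held few calls, where 11% of all genes were called. Of 6 neutrophil markers 0 were called by limma and 2 had an unadjusted p below 0.05, the calgranulins S100a8 and S100a9. S100a9 read 786.6, 1156 and 1459 in SS and 528, 546.9 and 922.2 in BN, groups that overlap (0.76, adjusted p = 0.12). Of 6 mast cell markers the protease Mcpt1 was higher in BN, at 20.5, 33.9 and 125.2 in SS against 190.9, 139 and 237.1 (-1.66 ± 0.37, adjusted p = 0.013), while Cpa3 and Tpsb2 stood at 0.36 and 0.00. The call of Mcpt1 was lost without SS control 2 (adjusted p = 0.0525), and SS control 3 lay close to the BN arrays. Among 21 cytokines and chemokines, by the brightest probe set, Ccl5 was called higher in SS and Cxcl12, Cxcl13 and Cx3cl1 higher in BN. That call of Cxcl12 was lost without BN control 2, and its other probe sets were called higher in SS, at 1.21 and 0.81. The B cell attractant Cxcl13 differed by -1.21 ± 0.34, a call lost without any 1 of the 6 control arrays (adjusted p up to 0.0962). Cx3cl1, a membrane-bound chemokine, differed by -0.84 ± 0.25 (adjusted p = 0.043), a call lost without any 1 of 5 control arrays (all but SS control 1, adjusted p up to 0.136). Hbb, a globin of red cells left in the vessels, did not pass at 1.02 and ranged from 564.3 to 4548 over the 6 arrays.

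Some matrix genes were modestly higher in SS. Of 30 tested extracellular matrix genes 6 were called higher in SS and 0 higher in BN (5.83% and 5.14% over all genes), with a median of 0.18. Col1a1, a chain of type I collagen, read between 1110 and 1227 in SS and at 831.4, 484.3 and 641.6 in BN (0.85 ± 0.15, adjusted p = 0.0031), and its dimmer probe set gave 0.33 and did not pass. Timp1, an inhibitor of metalloproteinases, read 307.1, 357.5 and 300 against 124.2, 76.1 and 178.6 (1.31 ± 0.28, adjusted p = 0.011). Neither gene overlapped between strains. Col3a1, the microfibril protein Fbn1, the elastic fibre protein Fbln5 and Col15a1 followed at 0.58, 0.51, 0.61 and 0.45. All but Col1a1 lost their call without BN control 2 or BN control 3, and Fbln5 and Col15a1 also without SS control 2 (adjusted p up to 0.0983), and 2 calls of the list remained without BN control 2. Of 7 fibroblast markers Col1a1 and the proteoglycan Dcn (0.75 ± 0.19) were called higher in SS. Dcn lost its call without any 1 of 4 control arrays (adjusted p up to 0.124), and the fibroblast receptor Pdgfra stood at -0.09.

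Endothelial markers leaned lower in SS. All 8 tested markers had a negative difference, with a median of -0.34 against -0.01 over all genes. Of them 2 were called, where 5.14% of all genes were called higher in BN. Vwf, von Willebrand factor, read 1101, 1161 and 859.1 in SS and 1992, 1890 and 1895 in BN (-0.89 ± 0.12, adjusted p = 0.00064). Pecam1, an adhesion molecule of endothelial junctions, differed by -0.52 ± 0.11, a call lost without BN control 2 (adjusted p = 0.0534). The VEGF receptor Kdr, the angiopoietin receptor Tek and the tight junction gene Cldn5 stood at -0.23, -0.35 and -0.33 and did not pass. The endothelin gene Edn1 was higher in SS, at 347.8, 485.6 and 461.3 against 223.5, 271.2 and 269.5 (0.72 ± 0.17, adjusted p = 0.019, lost without SS control 2, BN control 1 or BN control 2, adjusted p up to 0.0766). Among 16 genes of the renin-angiotensin system and vascular tone, Edn1 and the natriuretic peptide receptor Npr1 (-0.36 ± 0.10, lost without any 1 of the 6 arrays, adjusted p up to 0.159) were the 2 calls. Over all genes 11% were called. Ace, Agt and Agtr1a stood at -0.30, -0.32 and 0.27 and did not pass, nor did a second Ace probe set at 0.26.

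Epithelial markers held few calls. Of 9 alveolar type 2, 5 club cell and 6 ciliated cell markers limma called 0, with 1 of each list at an unadjusted p below 0.05. Over all genes 11% were called. Sftpc, Sftpa1 and Scgb1a1 stood at -0.23, 0.02 and -0.16, and the ciliated cell factor Foxj1 at -0.58 (adjusted p = 0.093). All 5 club cell markers had a negative difference, with a median of -0.25 that lay between -0.13 and -0.73 with 1 control array left out. Scgb3a1, a secretoglobin, read 91.6, 117.6 and 165.7 in SS and 638.7, 198.1 and 295.4 in BN, which do not overlap, and did not pass at -1.35 ± 0.91 (adjusted p = 0.34). Bpifa1, a secreted airway defence protein, stood at -2.73 ± 1.13 and did not pass (adjusted p = 0.13). Among 6 type 1 markers the anchoring protein Akap5 was lower in SS, at 389.4, 380.8 and 197.2 against 957.8, 1113 and 792.3 (-1.57 ± 0.21, adjusted p = 0.0007). The water channel Aqp5 was higher in SS by 0.38 ± 0.10, a call lost without any 1 of 4 control arrays (adjusted p up to 0.112), and Ager and Pdpn did not pass. Of 16 genes of sodium and steroid handling Aqp5 was the 1 call, and the epithelial sodium channel subunits Scnn1a, Scnn1b and Scnn1g stood at -0.13, 0.08 and 0.07.

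Enzymes of detoxification moved one by one. Of 24 glutathione enzymes 3 were called higher in SS and 2 higher in BN, against 5.83% and 5.14% of all genes, with a median of -0.02. Gsta4, a glutathione transferase for lipid peroxidation products, read 825.6, 900.1 and 1470.1 in SS and 314.1, 281.3 and 287.4 in BN, highest in SS control 3 (1.76 ± 0.24, adjusted p = 0.00064). Its relative Gsta1 was higher in SS by 0.72 ± 0.14, while Gsta3 was lower, at 38.2, 34 and 32 against 113.6, 129.2 and 75.5 (-1.24 ± 0.20, adjusted p = 0.0024). Of 24 cytochrome P450 and xenobiotic enzymes 2 were called in each direction, against the same shares of all genes. Cyp1a1 was high in SS, while Cyp1b1, another target of the aryl hydrocarbon receptor, stood at 0.27 and did not pass. Fmo1, a flavin monooxygenase, was lower in SS (-0.66 ± 0.13). Of 27 subunits of oxidative phosphorylation 4 were called higher in SS and 0 higher in BN, by 0.43 to 0.61, with a median of 0.19. Over all genes 5.83% were called higher in SS. This list leaned higher in SS, with a positive difference in 25 of the 27, and in 21 to 26 with any 1 control array left out. The summed subunits read 23575.7, 24816.8 and 29828.3 in SS control 1, 2 and 3 and 19784.6 to 23949.5 in BN controls. The 4 calls were all lost without BN control 2, and 1 was left without SS control 2 and 2 without SS control 3 or BN control 3.

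**Figure D2:**
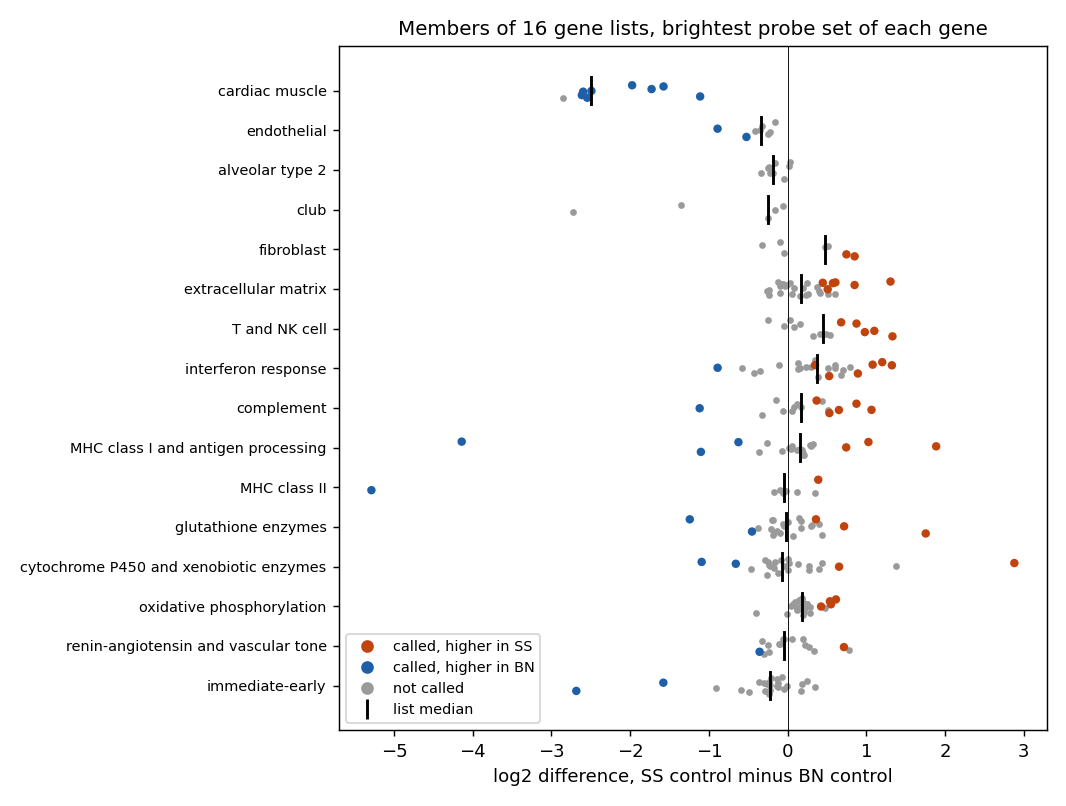
Strain difference (log2 scale, SS control minus BN control) of each tested member of 16 gene lists, by the brightest probe set of a gene. Coloured points were called, grey points were not, and black bars are list medians, which run from -2.49 for cardiac muscle to 0.47 for fibroblast markers.

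Stress and early-response lists held few calls, where 11% of all genes were called. Of 15 glucocorticoid targets and 14 heat shock genes limma called 0, with 2 of each list at an unadjusted p below 0.05. Of 25 immediate-early genes 0 were called higher in SS and 2 higher in BN, Ccn1 and Jund, against 5.83% and 5.14% of all genes. The list leaned lower in SS, with a median of -0.22 against -0.01 over all genes. A negative difference was seen in 21 of the 25, and in 19 to 23 with any 1 control array left out. Fos and Fosb stood at 0.17 and -0.13. Jund, a member of the AP-1 family, read 489.1, 414.4 and 881.4 in SS and 1607, 1663 and 1890 in BN on its brightest probe set (-1.58 ± 0.22, adjusted p = 0.00086). On the other, all SS arrays were near the floor, at 2.2, 2.4 and 2.1, against 114.4, 70.1 and 120.8 (-2.66 ± 0.21).

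Probe sets of the same gene did not always agree on the strain difference. Of 2690 genes with 2 or more tested probe sets, 643 had at least 1 called. In 588 of these some probe sets were called and others not, in 43 all were called in 1 direction and in 12 they were called in both. A call on 1 probe set and not on another does not by itself show that they differ. For 121 probe sets called by at least 2-fold, with a median size of 1.22, there were 214 pairings with a companion probe set of the same gene. Where several probe sets of a gene were called at that size, a companion recurs, and such probe sets are paired both ways. The shares below therefore weigh those genes more. The companion pointed the same way in 153 pairings (71.5%) and was called the same way in 61 (28.5%). It was called the opposite way in 9, and uncalled and within 0.25 log2 units of 0 in 81. In 119 pairings the companion was at least as bright as the called probe set. It pointed the same way in 79 of them (66.4%), was called the same way in 27 (22.7%) and was uncalled and within 0.25 in 56. Counted by gene, 31 of 106 genes had a companion called in the same direction and 61 had one that was uncalled and within 0.25.

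The disagreement was tested on the difference between probe sets within each array. Of 3557 pairs, each made of the brightest probe set of a gene and another, 302 differed in their strain difference (8.49%), in 269 genes. In 222 of them 1 probe set was called and the other not, with median sizes of 0.88 and 0.18. Choosing pairs in this way favours such a contrast in size. The called probe set was lower in SS in 142 of these pairs and higher in SS in 80, and it was the dimmer of the pair in 141. Both were called in 17 pairs, 8 of them in opposite directions. The count of pairs was 201, 141, 112 and 153 without SS control 1, SS control 2, BN control 2 and BN control 3. Without SS control 3 it was 484, with 252 of the 302 among them. With the beta-actin ratio as a covariate it was 203, with 173 of the 302 among them. The part of RNA integrity in the splits between probe sets was not tested.

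**Figure D3:**
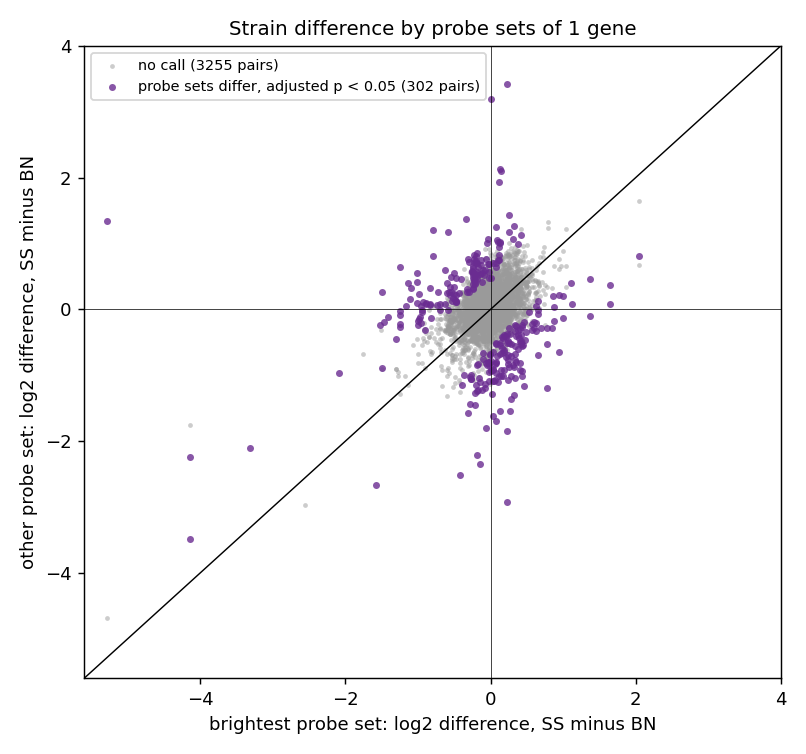
Strain difference of the brightest probe set of a gene (horizontal) against that of another probe set of the gene (vertical), both as log2 SS control minus BN control, for 3557 pairs. Purple points are the 302 pairs whose probe sets differed, many of which lie near 1 of the zero lines, with a difference on 1 probe set and little on the other.

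Some genes showed a difference of several log2 units on 1 probe set and none on another, which was of like brightness in Trio and Wtap. Trio, a guanine nucleotide exchange factor, read 536.3, 534 and 493.1 in SS and 514.4, 530.9 and 509.3 in BN on probe set 1390709_at, which overlap (0.01 ± 0.09). On 1392972_at it read 852, 832.6 and 894.9 against 88, 74.8 and 77 (3.19 ± 0.10), and the probe sets differed by 3.19 ± 0.15 (adjusted p = 3.2e-09). Sppl2a, an intramembrane protease, gave 0.23 on its brightest probe set and 3.42 ± 0.13 on 1395744_at, which read 350.1 to 381.8 in SS and 14.2 to 24 in BN. Its other probe sets gave 0.12 and -0.72 and did not pass. Wtap, a subunit of the m6A methyltransferase complex, gave 0.13 and 2.14, with intensities of 667.6 to 760.9 in SS and 116.6 to 179.8 in BN on the second.

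Similar splits ran towards BN. Sftpb, the surfactant protein B, is made in alveolar type 2 cells. Its brighter probe set read 2671 to 2950 in SS and 2978 to 3414 in BN (-0.19, adjusted p = 0.27). The dimmer one read 313.3, 246.6 and 481.8 against 1403, 1990 and 1481 (-2.21 ± 0.26), and the pair differed by 2.02 ± 0.25 (adjusted p = 0.00016). Sik1, a salt-inducible kinase, gave -0.15 on 1368596_at and -2.34 ± 0.26 on 1368597_at, where SS arrays read 29.8 to 55.1 and BN arrays 238.5 to 366.1. Cbfa2t3, a transcriptional corepressor, gave -0.42 on its brightest probe set, -2.51 ± 0.23 on 1379674_at, and -1.11, -0.75 and -0.33 on the others. Tpm1, a tropomyosin with muscle and non-muscle splice forms, gave 0.23 on its brightest probe set and -2.93 and -1.85 on others. Those others were high in BN control 1, as the cardiac genes were, and the part of cardiac muscle in the split was not tested.

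In a few genes probe sets were called in opposite directions. Cxcl12, the chemokine that holds leukocytes and stem cells in tissue, gave -0.79 ± 0.17 on its brightest probe set, with 314.3, 419.8 and 270.8 in SS and 481.7, 754.2 and 546.2 in BN. On 1369633_at, almost as bright, it read 570.5, 617.4 and 637 against 272.7, 229.8 and 261.1 (1.21 ± 0.10), and on a dim probe set it gave 0.81. The first and the dim probe set each lost their call without BN control 2 (adjusted p up to 0.089), and the pair differences held whichever array was left out. Ifnar2, a chain of the type I interferon receptor, gave 0.78 ± 0.22 and -1.19 ± 0.22, a gap of 1.97 ± 0.22 (adjusted p = 5.9e-05). The call of its brighter probe set was lost without any 1 of 5 control arrays (adjusted p up to 0.104). Celf2, an RNA-binding splicing regulator, gave -1.24 ± 0.11 and -1.28 on its brighter probe sets and 0.65 on another that did not pass (gap 1.89 ± 0.25 in size, adjusted p = 0.00022).

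In other genes the probe sets gave the same direction throughout. Kif26b, a kinesin family member, read 144 to 248.5 in SS and 468.4 to 518.6 in BN on its brighter probe set (-1.28 ± 0.18), and 159.5 to 166.4 against 332 to 360.7 on the other. The groups did not overlap on either, and the gap between probe sets, -0.28 ± 0.19, did not pass (adjusted p = 0.38). Borcs7, a subunit of a lysosome-positioning complex, gave 0.79 ± 0.10 and 1.32 ± 0.16. Rcor1, a corepressor of neuronal genes, gave -1.27 ± 0.19 and -0.95 ± 0.20, and Cmahp -2.09 and -0.96, the latter pair with a gap that passed (adjusted p = 0.0034). Clec3b gave -3.32 and -2.11, with SS control 3 between the strains on both. The second probe set of Clec3b lost its call without SS control 2 (adjusted p = 0.0544), and that of Rcor1 without BN control 2 (adjusted p = 0.0509).

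**Figure D4:**
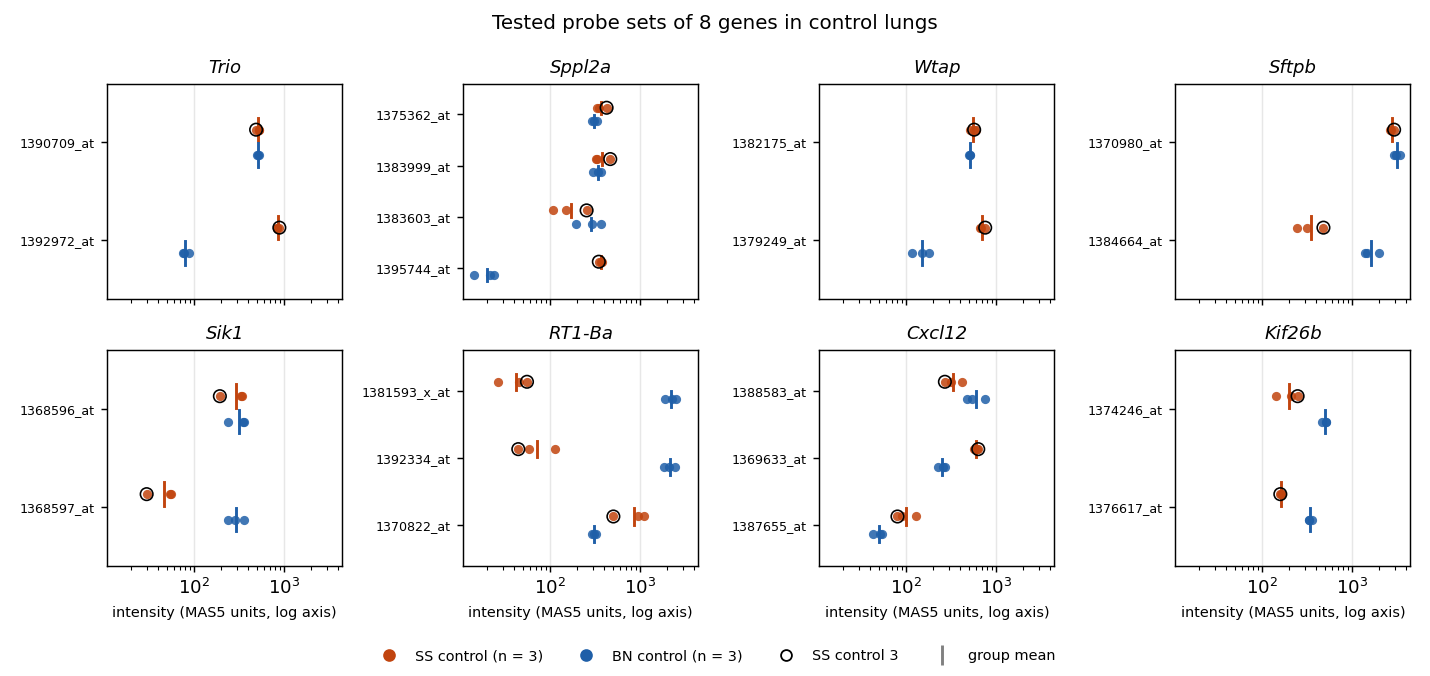
Intensity of each control array (log axis, MAS5 units) on the tested probe sets of 8 genes, brightest at the top. Strain differences were called on 1 probe set and not on another in Trio, Sppl2a, Wtap, Sftpb and Sik1. They were called in opposite directions in RT1-Ba and Cxcl12, and in the same direction in Kif26b.

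Calls were found on each type of probe set, and the gene next to a called gene was called about as often as any gene. Longer stretches of the genome were not examined. Probe sets with the manufacturer's x suffix, which marks probes that can match other transcripts, were called in 24 of 125 cases (19.2%), those with the s suffix in 24 of 152 (15.8%) and plain ones in 12.2%. These shares were not tested against each other. By gene order on the RefSeq assembly GRCr8, the next tested gene was also called for 136 of 1149 called genes (11.8%), where 11% of all placed genes were called, and 76 of the 136 pointed the same way.

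The HTV arrays, from other animals, repeated most of the larger differences. Of the 2281 probe sets called in control lungs 2118 (92.9%) had the same direction in HTV lungs and 821 (36.0%) were also called there, with 1 called in the opposite direction. The 821 became 535 without SS control 2, 457 without BN control 2 and 53 with the beta-actin ratio as a covariate in both fits. The HTV arrays had also entered the estimate of spread behind the control calls, so the repeat was not fully separate from them. With the control arrays fitted alone 1463 probe sets were called, of which 638 were also called in HTV lungs. The HTV arrays alone called 1508 of 18625 probe sets (8.1%), 3.91% higher in SS and 4.18% higher in BN. Of the 377 probe sets called by at least 2-fold in controls, 372 kept their direction and 305 (80.9%) were called in HTV arrays alone. Echdc2 stood at 3.25 in HTV lungs, Itgal at 3.41, RT1-Ba at -4.38 and Aurkb at -2.71. The splits between probe sets were there too, with -0.07 and 3.37 in Trio, -0.08 and -2.27 in Sftpb, and -0.01 and 2.05 in Wtap. RT1-CE5 and Clec3b, where SS control 3 stood apart, stood at -5.53 and -4.21.

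Some control differences were smaller in HTV lungs. Gzma stood at 0.32 (adjusted p = 0.21), Timp1 at 0.33 (adjusted p = 0.50) and Fbxo30, a ubiquitin ligase subunit called on both of its probe sets in controls (0.95 and 0.76, the first lost without BN control 2, adjusted p = 0.054), at 0.29 and 0.04. The cardiac genes kept their direction, with 2 of the 8 called in HTV arrays alone. The interferon genes stood higher, with Irf7 at 1.72, Ifit3 at 1.83 and Mx1 at 1.74. None of these was shown to differ between control and HTV lungs: the interaction of strain and HTV called 0 of 18625 probe sets in limma (0%), with 1551 at an unadjusted p below 0.05 (8.33%).

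**Figure D5:**
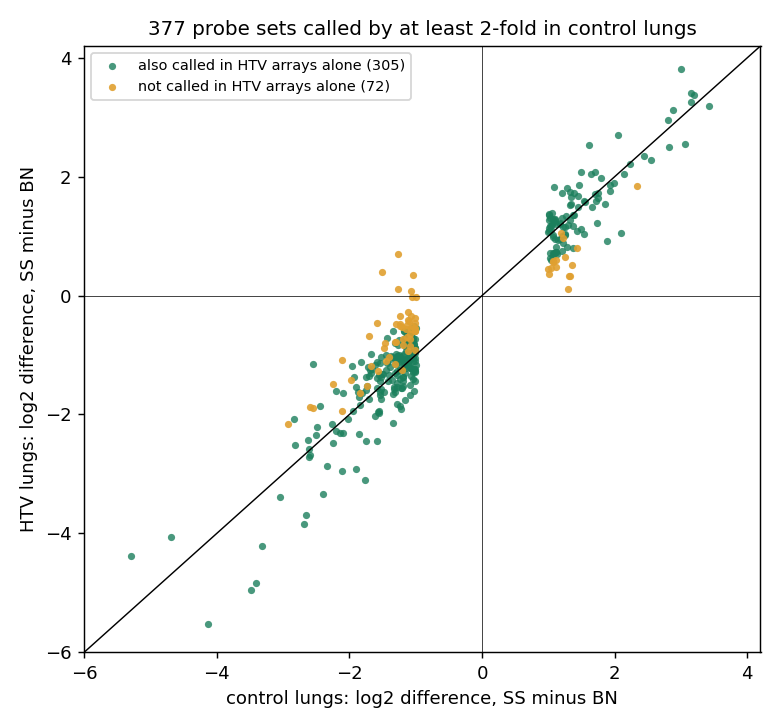
Strain difference in control lungs (horizontal) against HTV lungs (vertical), both log2 SS minus BN, for the 377 probe sets called by at least 2-fold in control lungs. Green points, 305 of them, were also called in the same direction in the HTV arrays alone, and 372 of the 377 lie on the same side of 0 in both.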

How the data were processed

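Right lungs of 12 rats were hybridised to Affymetrix arrays from 6 µg of total RNA, per the labels' protocols. The authors deposited linear intensity values, and MAS5 is the tool that the submitters' processing notes name, whose settings the sources used here do not give. Array medians were 58.5 to 68.1 in control lungs, so values were used as deposited, without further scaling. Detection calls were not used here.

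Of 31099 probe sets 57 were controls, and 20832 carried 1 gene name in the platform annotation. Probe sets were kept where the mean log2(intensity + 16) reached the 40th percentile, near an intensity of 42.2. The 4 group means were fitted over 12 arrays with limma 3.58.1 in R 4.3.3 (eBayes with its trend option and 8 residual degrees of freedom), with Benjamini-Hochberg adjustment over all kept probe sets and a threshold of 0.05. The same model was run on the difference between probe sets of a gene and on the 6 HTV arrays alone. The model was tested on simulated data. Each array has an animal number of its own in the labels, and p-values measure the spread among them.

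The rule for named genes took the 15 largest differences each way among genes whose arrays did not overlap, the 10 strongest genes with all probe sets called, the 10 widest splits and up to 5 genes with opposite calls, and up to 6 called and 3 defining members of each of 37 lists. The members and lists were chosen with earlier results of these data known, and which of them to print was decided with their values in view. RefSeq's GRCr8 table was used for names and gene order alone. Alternatives changed the pseudocount (1 or 64), the filter, the normalization, the trend, array weights, the arrays fitted and a beta-actin covariate, and left out each control array.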

Additional observations from a re-analysis of the deposited data

How the results depend on the processing

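Of 133 called probe sets named by the rule, 98 were tested under all 17 alternatives, of which 46 kept their call throughout. The others were below the brightness limit under 1 or more alternatives, and 0 of the 133 changed direction where tested. With any 1 control array left out, 65 kept their call. The losses were most frequent without BN control 2 (60) and SS control 2 (53). Fitting the control arrays alone ended 31 of these calls, testing without a filter 26 and the beta-actin covariate 26. Over all probe sets, 655 calls were kept whichever control array was left out, among them 287 of the 377 of at least 2-fold. Against 2281 called probe sets, array weights gave 4090, a fit of the 6 control arrays alone 1463, and leaving out 1 control array 744 to 2159. Against 302 pairs of probe sets, array weights gave 659, the control arrays alone 163, the beta-actin covariate 203, and leaving out 1 array 112 to 484. The repeat in HTV lungs, 821 probe sets, fell to 53 with the 5-prime to 3-prime ratio of beta-actin as a covariate and was 457 to 939 with 1 control array left out. The cause was not tested. A filter on the control arrays alone, added after seeing the data, gave 2313 calls. The share of calls higher in BN, 52.3%, was 48.2% with quantile normalization and 45.6% with the filter at the 60th percentile, so neither strain led in the count under every setting. No paired analysis was possible because the labels give the groups no shared animal numbers. With 3 arrays per strain and no detection calls, differences of probe sets near the floor are uncertain in size.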

Other observations

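Outside the lists and the largest differences, 649 of the 2281 called probe sets carried no single gene name, among them 148 of the 377 called by at least 2-fold. Lipid genes were called in both directions, 2 of 23 higher in SS and 3 higher in BN, against 5.83% and 5.14% of all genes. Besides Echdc2 these were the fatty acid transporter Cd36 at 0.60 ± 0.18, the desaturase Scd at -0.96 ± 0.29, Cpt1b, the muscle form of the enzyme that admits fatty acids to mitochondria, at -0.61 ± 0.15, and the epoxide hydrolase Ephx2 at -1.09 ± 0.33. The calls of these 4 were each lost without SS control 2 or BN control 2 and some other arrays (adjusted p up to 0.177). Ephx2 read 18.2, 30.3 and 92.4 in SS control 1, 2 and 3 and 85.2 to 115.8 in BN controls, so SS control 3 lay among the BN arrays. Casq2, the calcium store protein of cardiac muscle, which no list held, was called on both of its probe sets, at -0.90 and -0.89 (each lost without SS control 2 or BN control 2, adjusted p up to 0.0798). Among 15 circadian clock genes Bhlhe40 was higher in SS (0.72 ± 0.22, lost without any 1 of 5 control arrays, adjusted p up to 0.181), and Bmal1 and Npas2 stood at -0.55 and -0.95 and did not pass. The summed clock genes read 5183 in SS control 3 and 3053 to 3261 in the other control arrays.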
